A study of Mus musculus with 12 samples.

Results

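This comparison asks how the retrieval of each RNA by the double-stranded RNA antibody K1 differed between intestinal epithelium that had lost Kat2a and Kat2b (DKO) and control epithelium. It uses 8 of the 12 libraries of the study: 1 input library and 1 K1 pulldown library from each of 4 mice, chosen by their labels. The sample titles speak of whole intestine epithelial cells, and the extraction protocol gives the proximal small intestine as their source. The mice were female and aged 3 months. DKO mice (genotype KAT2A/KAT2B DKO) received tamoxifen at 100 mg/kg by intraperitoneal injection on 4 days, and control mice, labelled only as control, received the ethanol and corn oil vehicle. Cells were collected 2 days after the treatment ended. Tamoxifen and gene loss therefore cannot be told apart, and the driver of the recombinase and the alleles of the control mice are not given in the sources used here. A mouse is the unit of replication, with 2 per genotype.

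Kat2a and Kat2b encode lysine acetyltransferases that serve as alternative catalytic subunits of the SAGA and ATAC coactivator complexes. The antibody K1 binds double-stranded RNA through its helix rather than its sequence. In mammalian cells such RNA forms where both strands of a locus are transcribed, as on the mitochondrial genome, where inverted repeats fold back on each other, and within compact structured RNAs. Cells watch for it with sensors such as MDA5 (Ifih1), PKR (Eif2ak2), the OAS enzymes and TLR3.

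For each animal, the K1 minus input value is the log2 CPM (counts scaled to library size, with TMM) of a gene in the pulldown minus that in the input of the same animal. The K1 difference is this value in DKO minus that in control, fitted by edgeR with the animal as a block. Positive values mean that K1 retrieved more of a transcript, relative to input, in DKO. It is a ratio of ratios within library totals, so it does not give the amount of RNA bound. In bulk epithelium, fewer cells of a type and less RNA per cell cannot be told apart.

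The libraries differed by genotype before any gene was examined. Input libraries held 10307281 to 11474107 gene-assigned counts and control K1 libraries 16139531 and 14035066, but DKO K1 libraries held 5559033 and 2220291. Reads aligned to several places made up 6.02% and 6.56% of the listed reads in control K1 against 25.9% and 46.7% in DKO K1. The 10 most abundant genes took 6.57% and 7.67% of the counts in control K1 against 24.7% and 33.6% in DKO K1. The part of these differences in the results below was not tested. Epithelial identity was clear in every library: the 15 enterocyte markers summed to between 12188 and 51893 CPM, whereas 11 stromal markers summed to 3.20 to 8.002 CPM in input.

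The targeted transcripts were measured first. Kat2b had 359 and 343 counts in control input against 118 and 114 in DKO input. Kat2a had 222 and 228 counts in control input against 84 and 148 in DKO input. Both were thus lower in each DKO input library than in either control library. K1 retrieved Kat2b above input in all 4 animals, with K1 minus input values of 1.28 and 1.35 in control against 1.71 and 1.65 in DKO, and its K1 difference of 0.38 (SE 0.28) did not pass the threshold (edgeR adjusted p = 0.416). Kat2a had K1 minus input values of 1.04 and 1.07 in control against 0.38 and -0.20 in DKO, a K1 difference of -0.94 (SE 0.33, adjusted p = 0.0758).

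K1 enrichment of mitochondrial RNAs, of the RNA of the signal recognition particle and of other small structured RNAs rose. Messenger RNAs low in GC content fell more often than those of high GC content. Long ones fell more often than short ones, but not among those of highest GC content. Of 15908 genes tested, 1912 were called at an adjusted p under 0.05, which is 12% of them. The K1 difference was higher in DKO for 486 genes (3.06%) and lower for 1426 (8.96%). The median over all genes tested was -0.21, so a fixed scale of 0 lies slightly above the middle of the distribution. With DESeq2 size factors in edgeR the median was -0.05 and the calls were 632 higher and 1001 lower, which puts 38.7% of the calls on the higher side in place of 25.4%. Leaving out the first control animal gave 78 calls and leaving out the second 250. Leaving out a DKO animal gave 5748 (the first) or 4460 (the second). The number of calls thus depends on which animals enter the fit.

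In most called genes the K1 libraries moved more than the input. Among the 486 that rose, the change between genotypes in the K1 libraries was larger than the change in input for 424. Among the 1426 that fell it was larger for 1233. Most of the latter had been above input in control (1156 genes) and only 221 were above input in DKO. For 935 the fitted enrichment crossed from above to below input, with both sides past the threshold for 214. Because genes were called on the difference of these same values, these counts partly follow from the selection. In every called gene both DKO animals lay beyond both control animals. Over all genes tested such separation held for 20.4% upward and 38.3% downward, so it marks few genes out.

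**Figure D1:**
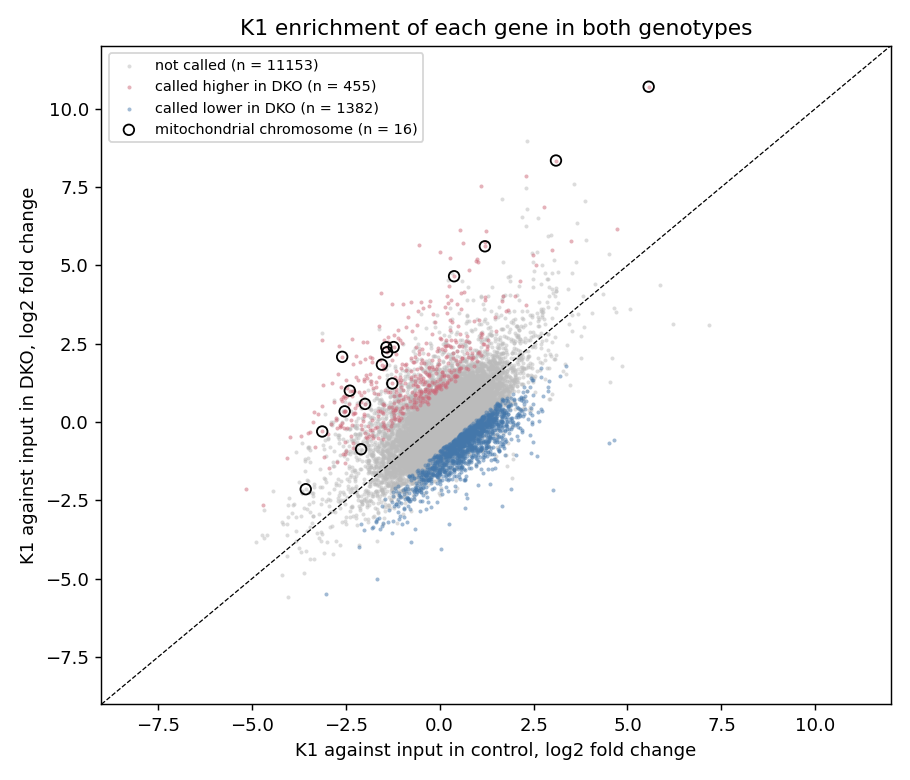
K1 enrichment of each gene in control (x axis) against DKO (y axis), as fitted log2 fold changes of K1 over input. The 12990 genes drawn are those with neither K1 group at 3 counts or fewer in both libraries. Input counts were not filtered in this way. Called genes lie away from the dashed line of equal enrichment, 455 above it and 1382 below it, and 14 of the 16 circled mitochondrial genes were called higher in DKO.

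Mitochondrial transcripts rose. The mammalian mitochondrial genome is transcribed in full from both strands, and long complementary RNAs arise that are usually degraded in the organelle. Of the 16 mitochondrial genes tested, 14 were called higher and 0 lower, with a median K1 difference of 3.50. The whole chromosome took 4.33% and 4.23% of the gene counts in control input, 3.27% and 3.23% in DKO input, 1.55% and 1.40% in control K1 against 8.76% and 18.6% in DKO K1. In control it was thus less abundant after pulldown than before, with pulldown minus input at -2.78 and -2.83 percentage points, and in DKO more abundant, at 5.49 and 15.4 points. The groups did not overlap, and the two-sided exact permutation p was 0.3333, the smallest that 2 against 2 animals allow.

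The ribosomal RNAs of the organelle, mt-Rnr1 and mt-Rnr2, stood at the head of the list. mt-Rnr1 had K1 minus input values of 3.86 and 2.39 in control against 8.11 and 8.38 in DKO, a K1 difference of 5.25 (SE 0.49, adjusted p = 3.37e-05). mt-Rnr2 had 5.95 and 5.16 in control against 10.53 and 10.78 in DKO, a difference of 5.14 (SE 0.57, adjusted p = 1.33e-04). K1 retrieved both above input in each animal, and more so in DKO. Their input counts were low after ribosomal RNA depletion, at 26 to 129 for mt-Rnr1 and 57 to 197 for mt-Rnr2, so the denominators are thinly counted. In DKO K1 the counts were 2882 and 2596 for mt-Rnr1 and 32413 and 27208 for mt-Rnr2.

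Of the 13 mitochondrial messenger RNAs, 11 were called higher and 0 lower, with a median K1 difference of 3.39. Their median K1 minus input value was -1.66 and -1.46 in the control animals. Without either control animal 6 of the 13 were called, and without either DKO animal 13. The highest were mt-Atp8 (4.68), which encodes a short subunit of ATP synthase, mt-Nd6 (4.40) and mt-Nd5 (4.27), which encode subunits of complex I. mt-Nd2 (3.80), mt-Co3 (3.62), mt-Nd1 (3.62), mt-Nd4 (3.39), mt-Nd3 (3.37), mt-Nd4l (2.87), mt-Co2 (2.56) and mt-Atp6 (2.49) followed. The 2 that were not called were mt-Cytb, at 1.42 (SE 0.53, adjusted p = 0.0924), and mt-Co1, at 1.22 (SE 0.67, adjusted p = 0.261), which had the most input counts of them. Even for these both DKO animals lay above both control animals. The transfer RNA gene mt-Tp, the only one of 22 that passed the count filter, had a difference of 2.83 (SE 0.35, adjusted p = 3.16e-04).

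**Figure D2:**
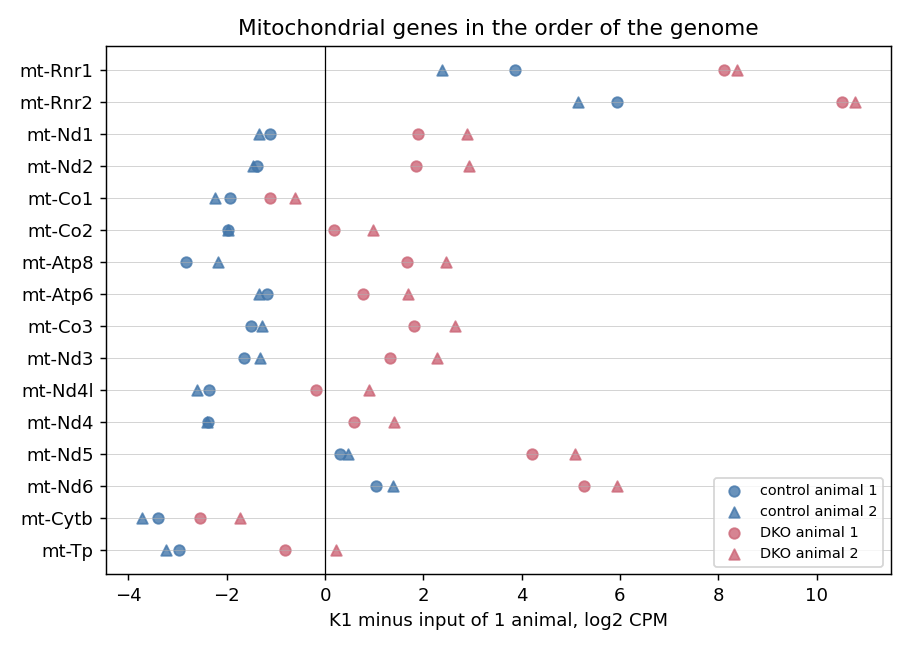
K1 minus input (x axis, log2 CPM) of each animal for the 16 mitochondrial genes tested, ordered by position on the mitochondrial genome. The DKO animals (red) lie to the right of the control animals (blue) for every gene. The gap is narrowest for mt-Co1 and mt-Cytb.

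Genes that share sequence with a neighbour are shown to make clear what the counts can resolve. mt-Nd5 (chrM:11742-13565, plus strand, GRCm38) and mt-Nd6 (chrM:13552-14070, minus strand) converge and overlap at their ends, which pair as complementary RNA. mt-Nd6 is the only protein-coding gene of the light-strand transcript. The last 60 bases of each are given 5′ to 3′, with the 14 overlapping bases in capitals.
mt-Nd5: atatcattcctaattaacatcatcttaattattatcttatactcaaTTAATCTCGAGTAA
mt-Nd6: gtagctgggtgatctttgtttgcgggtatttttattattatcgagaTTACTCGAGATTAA
In control, these 2 were the only mitochondrial messenger RNAs that K1 did not leave below input, with K1 minus input values of 0.31 and 0.46 for mt-Nd5 and 1.03 and 1.38 for mt-Nd6. In DKO they reached 4.22 and 5.09 for mt-Nd5 and 5.27 and 5.95 for mt-Nd6. Because the counts ignore strand, a read from the strand opposite to a gene is counted with it, and sense and antisense RNA of these loci cannot be told apart.

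mt-Atp8 (chrM:7766-7969, plus strand) lies on the same transcript as mt-Atp6 and runs into it by 43 bases, shown in capitals.
mt-Atp8: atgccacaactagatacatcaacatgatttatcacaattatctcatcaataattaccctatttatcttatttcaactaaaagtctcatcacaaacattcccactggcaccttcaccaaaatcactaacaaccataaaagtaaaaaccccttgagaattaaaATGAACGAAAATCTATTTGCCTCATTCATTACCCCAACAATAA
mt-Atp8 went from K1 minus input values of -2.82 and -2.18 in control to 1.68 and 2.45 in DKO, and mt-Atp6 from -1.17 and -1.33 to 0.78 and 1.68. Both crossed from below to above input, with a larger difference for mt-Atp8. The counts of mt-Atp8 were modest, at 129 to 187 in input, 33 and 35 in control K1 against 155 and 138 in DKO K1. mt-Co1, mt-Co2, mt-Atp6, mt-Co3, mt-Nd3 and mt-Nd4l have near-identical nuclear copies over 99.0% or more of their length and mt-Nd4 over 63.6%, so reads of these genes and their copies cannot be told apart. mt-Rnr1, mt-Rnr2, mt-Nd1, mt-Nd2, mt-Atp8, mt-Nd5, mt-Nd6 and mt-Cytb had no such copy among the annotated transcripts.

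The second group that rose consists of small structured RNAs. The 7SL RNA, encoded in the mouse by Rn7s1 and Rn7s2, is the scaffold of the signal recognition particle, which delivers secretory proteins to the endoplasmic reticulum, and folds into a long base-paired rod. Rn7s1 and Rn7s2 are identical over their 300 bases, so their reads cannot be assigned to either. Near-identical copies cover 100% of both, and reads aligned to several places were not counted, so their counts are partial and their values uncertain. The share of such reads was higher in DKO K1 than in control K1, and its part in these values was not tested. Rn7s6 and Gm26461, which lies within the span of Zfp949, share 85.0% and 79.0% of aligned bases with Rn7s1.

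In control, K1 retrieved these RNAs at about their input level. Rn7s1 had K1 minus input values of -0.33 and -0.05 in control against 3.15 and 3.75 in DKO, a K1 difference of 3.65 (SE 0.32, adjusted p = 2.62e-05). Rn7s2 had -0.73 and -0.15 in control against 3.16 and 4.14 in DKO, a difference of 4.10 (SE 0.39, adjusted p = 3.82e-05). Rn7s6 had -0.35 and -0.17 in control against 3.21 and 4.50 in DKO, a difference of 4.13 (SE 0.38, adjusted p = 3.37e-05). The groups were far apart for each, and all 3 stayed called under each of the 12 alternative settings. Input levels of Rn7s1 differed little, with 202 and 300 counts in control against 316 and 349 in DKO. The related genes Gm26461, at 4.96 (SE 0.49), and Gm24514, at 5.61 (SE 0.50), were picked out after their values were seen. Gm24514 had 441 and 522 counts in control K1 against 4946 and 6989 in DKO K1, from similar input counts of 262 to 352.

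Of the 9 structured noncoding RNAs listed, 7 were tested, 5 were called higher and 0 lower, and their median K1 difference was 3.65. Without either control animal 3 were called. Rn7s1 and Rn7s2, both among those called, are identical in sequence, so their calls are not independent. Besides them the called genes included Terc, the template RNA of telomerase, at 1.68 (SE 0.38, adjusted p = 0.0103). Rmrp, the RNA of RNase MRP, had 4 and 30 counts in control K1 against 46 and 18 in DKO K1, and Vaultrc5, a vault RNA, 4 and 4 against 30 and 24, so these 2 calls rest on few counts. Rpph1, the catalytic RNA of RNase P and the member with the highest mean count, had 1.36 and 1.95 in control against 4.31 and 3.55 in DKO, a difference of 2.28 (SE 0.80) that was not called (adjusted p = 0.0774). Transcripts of Ccnb1ip1 contain 73.0% of its sequence, so its count is uncertain. The annotation class of miscellaneous RNA, which holds several of these genes, had 14 of 30 tested genes called higher and 0 lower. The median mean count of this class was 11.5, so some of these calls rest on few counts.

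Small nucleolar RNAs, which guide chemical modification of ribosomal RNA, and Cajal body RNAs moved less evenly. Of the 14 tested under a Snora, Snord or Scarna name, 4 were called higher and 0 lower. Their median of 2.29 became -0.09 when all genes were kept regardless of count. The annotation classes, which also hold unnamed genes, included falls, with 8 of 45 snoRNA genes higher and 1 lower, and 3 of 8 scaRNA genes higher and 1 lower. The median mean count of the 45 snoRNA genes was 8.88. Of them 11 had at most 3 counts in both control K1 libraries and 18 in both DKO K1 libraries. A rare gene may thus have passed the count filter only through the group where it was high, so the snoRNA class counts are uncertain. The genes that fell were Gm24357 (-2.46) and Gm22009 (-1.98), picked out after their values were seen. All of Gm24357 lies in transcripts of Taf1d, so its count is uncertain, and its value ranged from -8.95 to -1.91 with an animal left out. Snora23 had K1 minus input values of -0.48 and 0.48 in control against 2.56 and 2.81 in DKO, a difference of 2.68 (SE 0.35, adjusted p = 5.29e-04). It lies inside Ipo7 on the same strand. Scarna13 had 0.87 and 1.44 in control against 2.71 and 4.96 in DKO, a difference of 2.67 (SE 0.56, adjusted p = 0.0072). Of 11 snoRNA host genes, 5 were called higher and 0 lower (median 1.61), Snhg17 at 2.03 and Snhg8 at 1.61 among them. Leaving out a control animal left 0 of these host genes called by edgeR, with 4 (without the first) or 6 (without the second) at an unadjusted p under 0.05.

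Predicted folding, which uses the sequence alone, was set beside the K1 calls of short transcripts. Among transcripts of up to 500 bases, the 62 called higher had a median predicted free energy of -32.04 kcal/mol per 100 bases, the 7 called lower -28.42 and the 574 not called -29.56. The median share of paired bases was 60.6%, 59.2% and 59.5%. These groups also differed in depth, with a median mean count of 45.6, 249 and 9.70, and no test was made.

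Long noncoding RNAs kept in the nucleus had 3 of 7 tested genes called higher and 1 lower. With either control animal left out 0 were called by edgeR, with 2 at an unadjusted p under 0.05, and 0 in the fit of all 12 libraries. Malat1, a nuclear speckle RNA, had K1 minus input values of -3.11 and -3.52 in control against -1.69 and 0.11 in DKO, a difference of 2.53 (SE 0.63, adjusted p = 0.0177). It was depleted by K1 in control and less so in DKO, with the DKO animals far apart. Kcnq1ot1, the antisense RNA of the Kcnq1 imprinted locus, had a difference of 1.64 (SE 0.41, adjusted p = 0.0188). Meg3 was also called, but control K1 held 2 and 0 counts. Tug1 went the other way, from 1.58 and 1.08 in control to 0.18 and -0.30 in DKO, a difference of -1.38 (SE 0.32, adjusted p = 0.0121).

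Among nuclear genes outside these classes, Eid3, which encodes a component of the SMC5/6 complex, had the largest called rise of the genes named by rule. Its K1 minus input values were -2.45 and -2.52 in control against 1.68 and 3.10 in DKO, a difference of 5.09 (SE 0.48, adjusted p = 3.37e-05). Its counts were 79 to 96 in all 4 input libraries, 17 and 15 in control K1 against 114 and 144 in DKO K1. Eid3 (chr10:82866626-82867930, plus strand) lies within the span of Txnrd1 on the same strand, so unspliced Txnrd1 RNA would be counted with it. CT010467.1, annotated as ribosomal RNA on chromosome 17, had 0.86 and 1.54 in control against 5.75 and 6.31 in DKO, a difference of 4.86 (SE 0.36, adjusted p = 1.15e-05), and 67.3% of its sequence is near-identical to other annotated transcripts.

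**Figure D3:**
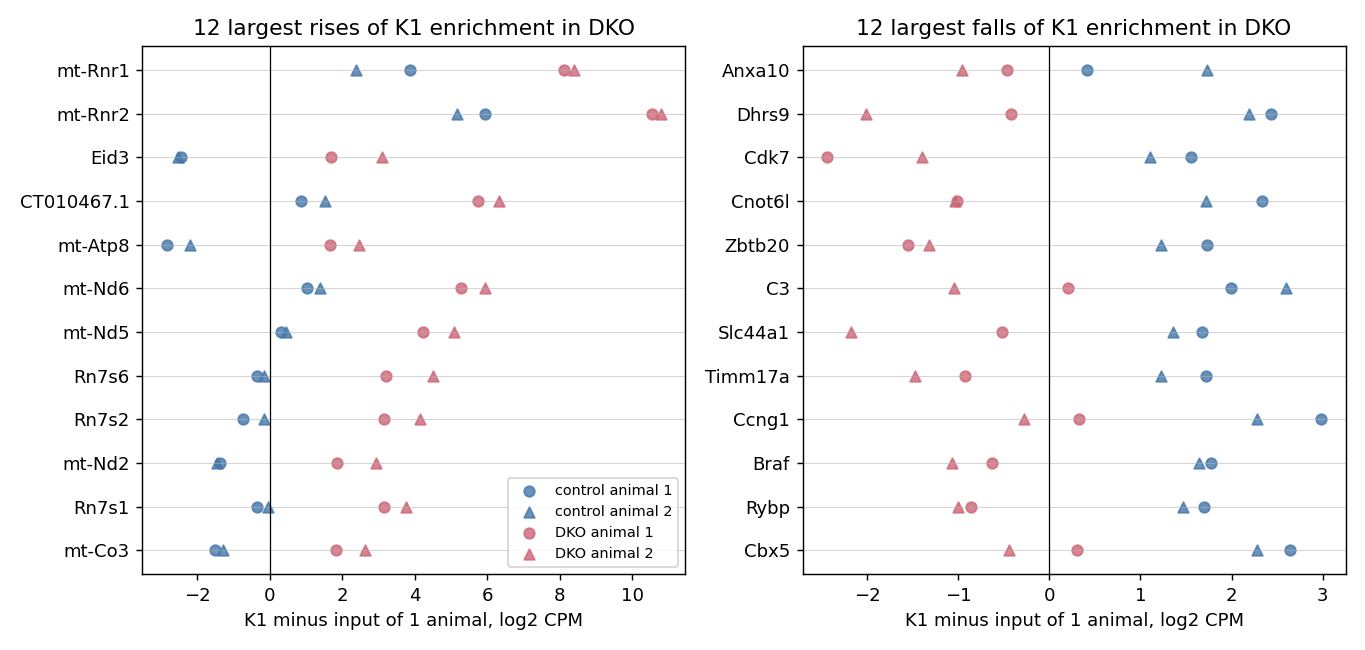
K1 minus input (x axis, log2 CPM) of each animal for the 12 largest rises and the 12 largest falls among the genes named by rule. Circles are the first and triangles the second animal of each genotype. Control (blue) and DKO (red) animals are separate for every gene, and most falls go from above input in control to below it in DKO.

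The genes that fell were mostly messenger RNAs, with 1368 protein-coding genes among the 1426. Dhrs9, a retinol dehydrogenase, had K1 minus input values of 2.44 and 2.19 in control against -0.42 and -2.01 in DKO, a difference of -3.42 (SE 0.46, adjusted p = 6.48e-04). Its input counts rose from 20 and 22 in control to 383 and 337 in DKO, while its K1 counts were 159 and 113 against 106 and 14. DKO K1 libraries held 5559033 and 2220291 gene counts against 16139531 and 14035066 in control K1, so raw counts overstate any fall in K1. The fall in K1 enrichment of Dhrs9 thus came with more transcript in input. C3, complement component 3, had the same pattern, with 30 and 73 counts in control input, 4500 and 2471 in DKO input and a K1 difference of -2.79 (SE 0.43, adjusted p = 0.0015). Ccng1, a p53 target encoding cyclin G1, had 384 and 492 input counts in control against 1583 and 2375 in DKO, and a difference of -2.61 (SE 0.35, adjusted p = 6.48e-04).

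Other falls came with little change in input. Cdk7, the kinase of the CDK-activating complex and of TFIIH, had 202 and 271 counts in control input against 155 and 189 in DKO input, but 806 and 608 in control K1 against 10 and 12 in DKO K1. Its K1 minus input values were 1.56 and 1.11 in control against -2.44 and -1.40 in DKO, a difference of -3.33 (SE 0.40, adjusted p = 2.56e-04). Cnot6l, a deadenylase of the CCR4-NOT complex, had 4151 and 2258 counts in control K1 against 60 and 37 in DKO K1. Its K1 minus input values were 2.33 and 1.72 in control against -1.02 and -1.04 in DKO, a difference of -3.06 (SE 0.33, adjusted p = 1.03e-04). Zbtb20, a transcriptional repressor, went from 1.73 and 1.22 to -1.56 and -1.32, a difference of -2.94 (SE 0.32, adjusted p = 1.19e-04). In these genes K1 retrieved the transcript above input in control and below it in DKO. Their raw K1 counts are not scaled for the lower depth of the DKO K1 libraries, whereas the K1 minus input values are. The choline transporter gene Slc44a1 (-2.77), the mitochondrial import gene Timm17a (-2.65), the kinase gene Braf (-2.54), the Polycomb gene Rybp (-2.52) and Cbx5, which encodes heterochromatin protein HP1 alpha (-2.51), completed the named falls, all with an adjusted p of 0.0017 or lower.

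Anxa10, an annexin of the regenerative epithelium list, was the largest fitted fall among named genes with counts in both DKO K1 libraries, but it had 0 counts in both control input libraries and 1 and 6 in control K1, so no fold can be given for control. In DKO it had 383 and 229 counts in input and 103 and 20 in K1. For Ros1, a receptor tyrosine kinase gene, both DKO K1 libraries had 0 counts, against 295 and 222 in control K1, and with the 3-count floor its K1 difference was at or below -0.95. Edaradd, an adaptor of ectodysplasin signalling, also had 0 counts in both, and its bound was -0.85. The bounds were -1.72 for Igip and -1.17 for Mecomos, an antisense gene that overlaps Mecom. Counts of Mecomos in control K1 were 5 and 5.

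The share of nuclear protein-coding genes that fell differed with transcript length and base composition. Spearman correlations with the K1 difference were weak, at -0.19 for length and 0.24 for GC content. Nuclear protein-coding genes were split into 4 bins of equal size by the length, and again by the GC content, of their longest annotated transcript. Of the longest bin (over 4807 bases) 642 of 3209 genes fell (20.0%), against 175 of 3212 (5.45%) in the shortest bin (up to 2203 bases). In the bin of lowest GC content (up to 45.1%) 649 of 3211 genes fell (20.2%), against 99 of 3210 (3.08%) in the bin of highest GC content (over 54.6%). Rises went the other way with GC content, with 50 genes in the lowest bin and 106 in the highest. The median K1 difference was -0.51 in the lowest and 0.05 in the highest GC bin, and -0.47 in the longest and -0.04 in the shortest length bin.

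Length, GC content and counts are related, and the power to call a gene grows with its count. In the bin of highest mean counts 642 genes fell and 32 rose, against 23 and 80 in the lowest. The K1 difference itself also moved with counts, with a median of -0.45 in the highest bin and 0.22 in the lowest. The part of power in these numbers was not tested. Within the bin of highest mean counts, 41.7% of the 676 genes of lowest GC content fell and 6.38% of the 831 genes of highest GC content. In the same bin 30.6% of 1192 long genes and 12.7% of 550 short genes fell. Both properties together gave a wider range than either: 360 of 1099 genes that were long and low in GC content fell (32.8%, median -0.77), but 11 of 473 that were long and high in GC content (2.33%, median -0.01), and 41 of 453 that were short and low in GC content (9.05%, median -0.21). Of the short genes of high GC content 54 of 1179 fell (4.58%). Lower GC content thus went with more falls among long and among short genes alike. Greater length went with more falls in the lowest GC bin but not in the highest, and no test of these shares was made. Under each of the 12 alternatives the share that fell was larger in the lowest than in the highest GC bin, with the narrowest ratio without the first DKO animal, at 35.6% against 23.0%. The share that fell in the longest bin was likewise larger than in the shortest under each, but its size moved widely, from 11 of 3303 genes when control animal 1 was left out and 2.62% when control animal 2 was, to 43.9% when DKO animal 1 was. Library depth and the share of reads aligned to several places differed by genotype in the same libraries, and their part in this pattern was not tested.

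**Figure D4:**
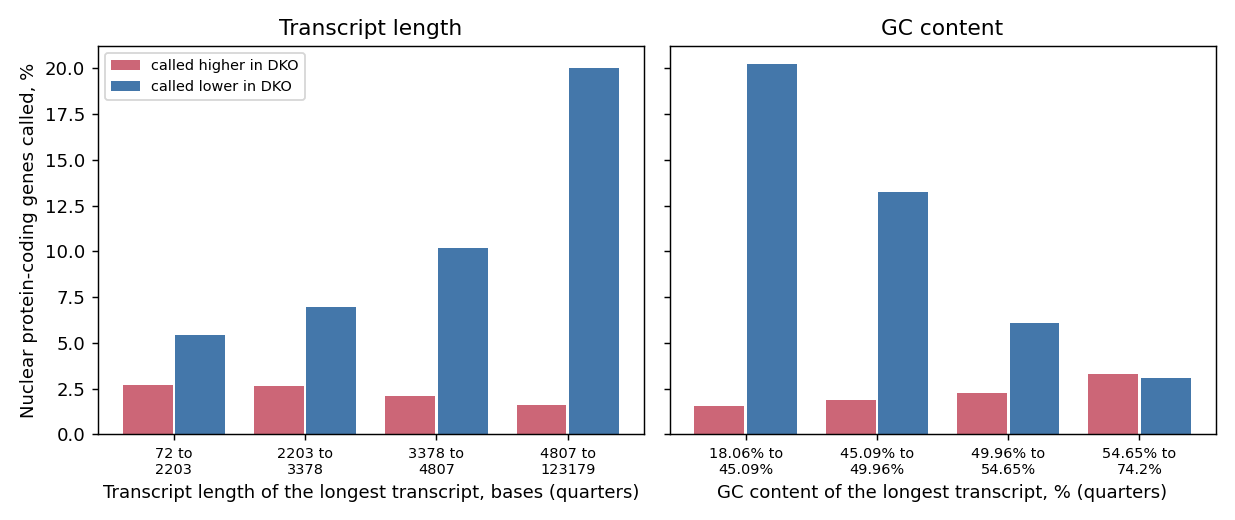
Share of nuclear protein-coding genes called higher (red) or lower (blue) in DKO, in % (y axis), by bin of transcript length and of GC content (x axes, 4 bins each). Falls grow from 5.45% to 20.0% with length and shrink from 20.2% to 3.08% with GC content, while rises stay between 1.56% and 3.30%.

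Genes that sense or process double-stranded RNA were read as transcripts retrieved by K1, not as proteins. Of 11 sensor genes, 1 was called higher (9.09%) and 2 lower (18.2%), beside 3.06% and 8.96% of all genes, with a median of 0.24. Shares of so short a list rest on single genes. Oas1b, annotated as a polymorphic pseudogene, had K1 minus input values of -2.12 and -2.79 in control against -0.90 and 0.53 in DKO, a difference of 2.57 (SE 0.56, adjusted p = 0.0094). It had 11 and 5 counts in control K1. Tlr3, the endosomal receptor, had a difference of -1.43 (SE 0.29, adjusted p = 0.0060) and Eif2ak2, which encodes PKR, one of -0.90 (SE 0.27, adjusted p = 0.0436). The others did not pass, with Ifih1 at -0.35, Ddx58 (RIG-I) at -0.38, Dhx58 (LGP2) at 0.55, Zbp1 at 0.35, Oas1a at 0.27, Oas1g at 0.76, Oas2 at 0.24 and Oas3 at 0.12, with Oas3 below 0 when control animal 1 or DKO animal 1 was left out. For 13 genes for proteins that edit, bind or cleave double-stranded RNA the median was -0.21, and 0.21 after thinning. By edgeR or DESeq2 0 of them were called higher (1 at an unadjusted p under 0.05). Called lower were 3 (23.1%, beside 8.96% of all genes): Strbp (-2.19), which encodes a spermatid RNA-binding protein, Drosha (-1.58) and Dicer1 (-1.20), the nucleases of microRNA maturation. Adar, the editing enzyme, was at -0.21 (adjusted p = 0.711), and at 0.12 after thinning.

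The 36 interferon-induced genes were split, with 2 called higher, 4 lower and a median of 0.13, which was -0.22 without the first DKO animal. The called shares, 5.56% higher and 11.1% lower, were near those over all genes (3.06% and 8.96%). Ifi44 had 64 and 20 counts in control input against 1681 and 1628 in DKO input, with a K1 difference of -2.02 (SE 0.31, adjusted p = 0.0015). Dtx3l, at -1.81, was also lower, and Ifit3b, at 1.39, was higher. Ifit3b is near-identical to Ifit3 over 88.3% of its length. Leaving out a control animal left 0 of the 36 called by edgeR, with 3 (without the first) or 6 (without the second) at an unadjusted p under 0.05. Of 23 subunit genes of SAGA and ATAC tested, Sgf29 (1.52) was higher and Atxn7 (-1.11) and Tada2b (-1.06) were lower. These are 4.35% and 8.70% of the list, near the shares over all genes (3.06% and 8.96%). DESeq2 called 0 of them, with 3 higher and 1 lower at an unadjusted p under 0.05, and edgeR called 0 without either control animal, with 1 at an unadjusted p under 0.05 in each case.

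Transcripts of cytosolic ribosomal proteins leaned lower, as did abundant transcripts in general. Of 79 cytosolic ribosomal protein genes, 12 were called lower and 0 higher (29 and 1 at an unadjusted p under 0.05, and 6 and 0 called by DESeq2). Their median was -0.54, with 10 genes above 0. The share that fell was 15.2%, against 8.96% of all genes. These genes were abundant, with a median mean count of 1188. In the bin of highest mean counts 20% of nuclear protein-coding genes fell, with a median of -0.45. Rpl5 had K1 minus input values of 2.27 and 2.27 in control against 0.68 and 0.14 in DKO, a difference of -1.86 (SE 0.35, adjusted p = 0.0040). Rpl39 (-1.83), Rpl29 (-1.79) and Rpl9 (-1.63) were also lower. Many ribosomal protein genes have processed pseudogenes, and near-identical copies cover 96.4% of Rpl5 and 50.9% of Rpl29, so these values are uncertain. The number called was 5 with no animal block, 0 if either control animal was left out and 49 if the first DKO animal was. Of 77 nuclear genes of the respiratory chain and ATP synthase, 7 were lower (9.09%) and 1 higher (1.30%), beside 8.96% and 3.06% of all genes. Their median was -0.24, near that of all genes, and 0.10 after thinning. Cox8a (-2.02), Uqcr10 (-1.60) and Ndufa4 (-1.47), subunits of complexes III and IV, were lower and Sdha (1.45) was higher. The median of these nuclear genes thus lay far below that of the mitochondrial messenger RNAs, and the difference was not tested. Of 76 mitochondrial ribosomal protein genes, 6 were lower, Mrpl49 (-1.97) among them, and Mrpl20 (1.40) was the 1 called higher. Their share that fell, 7.89%, was below that of all genes, and their median of -0.12 changed sign in 4 of the 12 alternatives.

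Of 309 Zfp zinc finger genes tested, 24 were lower (Zfp120 at -2.24 and Zfp518a at -2.16) and 3 higher, so that 7.77% fell, near the background. Of 49 replication histone genes 2 were higher (Hist1h4f at 1.12 and Hist1h1a at 1.09) and Hist1h2bc (-1.06), which has near-identical copies over 39.8% of its length, was lower. These are 4.08% and 2.04% of the list, beside 3.06% and 8.96% of all genes. Of 64 noncoding genes named as the opposite strand of another gene, 1 was higher (1.56%) and 2 lower (3.1%), with Adap2os at -2.25. It overlaps Adap2, whose reads cannot be separated from it.

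**Figure D5:**
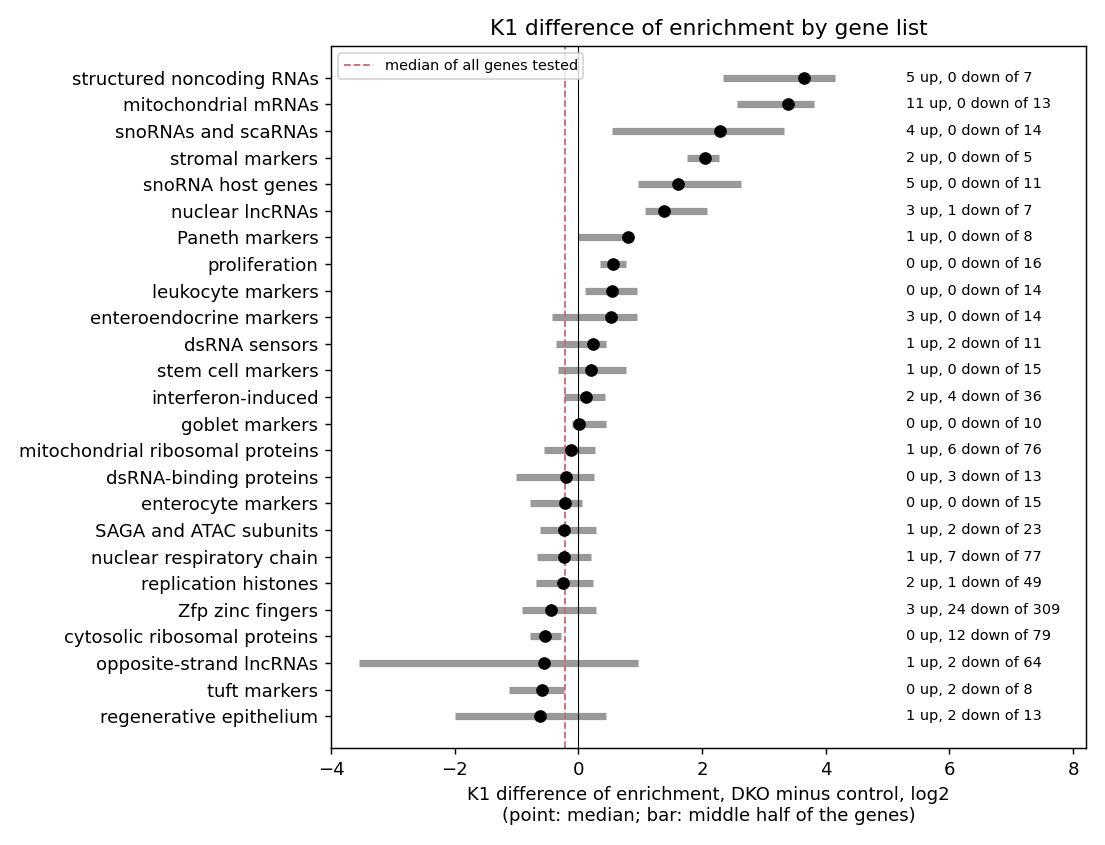
Median K1 difference (points) and interquartile range (bars) for the gene lists with at least 5 genes tested, in log2 units (x axis), with the number called in each direction. The dashed line is the median of all genes tested, -0.21. Fitted values are drawn, also for genes at the floor. With bounds for K1 groups at the floor, and without genes lacking a fold, the median of all genes is -0.11. In the same way it is 0.00 in place of -0.56 for opposite-strand lncRNAs and -0.04 in place of -0.62 for the regenerative list. Structured noncoding RNAs (3.65) and mitochondrial messenger RNAs (3.39) lie farthest from it.

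Few markers of the cell types of the epithelium were called. Of 15 stem cell markers 1 was called higher, Lgr5, the receptor that marks crypt base stem cells, at 2.20 (SE 0.38, adjusted p = 0.0026), with K1 minus input values of -0.22 and -0.20 in control against 1.53 and 2.28 in DKO. Its input counts were lower in DKO, at 33 and 56 against 150 and 182. The Paneth cell gene Itln1, which encodes intelectin, was higher at 1.80 (SE 0.37), as were the enteroendocrine genes Neurod1 (1.85), Chga (1.25) and Cck (0.96). The tuft cell gene Dclk1 (-1.69) was lower. Neurod1 was called in 4 of the 12 alternatives and ranged from 0.88 to 2.74 with an animal left out. Without either control animal edgeR called 0 genes of the stem cell, Paneth, enteroendocrine, tuft and regenerative lists, with at most 3 of a list at an unadjusted p under 0.05, and with no animal block 0 Paneth, enteroendocrine or regenerative genes. In the regenerative list the growth factor genes Areg and Ereg, both far more abundant in DKO input, split: Areg was at 1.17 and Ereg at -2.003. None of the 15 enterocyte, 10 goblet or 16 proliferation genes was called by edgeR, while 2, 1 and 5 had an unadjusted p under 0.05. DESeq2 called 2 enterocyte genes lower and 0 of the others. The enterocyte median was -0.21, as for all genes, but 0.31 without the second DKO animal and -1.06 without the first, and the proliferation median was 0.56 with all 16 genes above 0.

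Markers of other cell types in the preparation were also measured. Leukocyte markers had 14 of 16 genes tested and 0 called by edgeR or DESeq2, with 3 at an unadjusted p under 0.05 in edgeR and a median of 0.55. Their summed level was 2113 and 1804 CPM in control input, 1000 and 942 in DKO input, 804 and 832 in control K1 against 903 and 431 in DKO K1. Of 11 stromal markers 5 were tested and 2 called higher. Their summed level was 3.20 and 7.84 CPM in control input against 8.002 and 6.06 in DKO input, but 3.78 and 39.8 in control K1 against 158 and 80.6 in DKO K1. Col1a1, the main fibrillar collagen gene, was among them, with 1 and 23 counts in control input, 20 and 14 in DKO input, 20 and 269 in control K1 against 492 and 103 in DKO K1. Its K1 difference was 2.27 (SE 0.49, adjusted p = 0.0085). The first control animal stood apart from the second for this gene.

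The antibody J2 was used on the same lysates. Its difference of enrichment shares the input libraries and animals with that of K1, so the values are given side by side and neither supports the other. With the animal block, edgeR called 0 of 15923 genes (0%) for J2, where 4074 had an unadjusted p under 0.05. For K1 the same fit had 4308 of 15908 genes at an unadjusted p under 0.05 and called 1912. For J2, DESeq2 with the same block called 1216, and edgeR without the block 432. The J2 differences were 4.49 for mt-Rnr1, 4.54 for mt-Rnr2, 2.89 for mt-Atp8, 2.97 for mt-Nd6, 3.14 for mt-Nd5, 3.35 for Rn7s1, 3.67 for Rn7s6, 4.55 for Eid3 and 4.42 for Snora23. For the falls they were -3.29 for Dhrs9, -3.14 for Cdk7, -3.21 for Cnot6l and -3.19 for Zbtb20. The lowest adjusted p among these genes was 0.0712. For mt-Cytb the J2 difference was 0.04 beside 1.42 for K1, and for CT010467.1 6.93 beside 4.86. Whether the antibodies differ was not tested.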

How the data were processed

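RNA was measured in input and in K1 and J2 pulldowns of 4 mice. Per the submitters' processing notes, the tools included STAR 2.7.10b, SAMtools 1.17, UMI-tools 1.1.4 and HTSeq 2.0.2, with build mm10 (GRCm38.p4). Their settings and the annotation release are not given in the sources used here. Each deposited file holds 1 library: raw read counts for 48526 gene rows, taken without regard to strand, per the labels. The closing rows of each file (reads outside genes, ambiguous or aligned to several places) entered neither library sizes nor tests. Unstranded counts merge a gene with its antisense partner, and reads from near-identical copies may be lost. Symbols, types and coordinates came from GENCODE M21 (GRCm38), which matched 48144 rows without the version suffix.

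The K1 difference was fitted in edgeR 4.0.16 (R 4.3.3) by the quasi-likelihood test on 8 libraries with TMM scaling, filterByExpr at a count minimum of 10, the animal as block, K1, and K1 in DKO, leaving 2 residual degrees of freedom. Genes were called at a Benjamini-Hochberg adjusted p under 0.05. Every adjusted p printed is from that fit. The replicate numbers pair the samples, since input and pulldown of a number carry the same animal code in the labels, and their deviations from the group means correlated at 0.31 in control and 0.22 in DKO. A prior count of 2 was added for log2 CPM. A group with at most 3 counts in each library was at the floor, and bounds use 3 counts per library and cover counting error only. The script was tested on simulated data. DESeq2 1.42.0, ViennaRNA 2.7.2 and blastn 2.17.0+ (copies of at least 97% identity over 50 bases) were also used. Alternatives were the block, DESeq2, other scalings, no filter, thinning, all 12 libraries and each animal left out.

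Named genes were Kat2a and Kat2b, the 12 largest rises and falls among called genes with a mean of at least 50 counts, no Gm or Rik symbol, animals separate and, for falls, at least 10 counts in both DKO K1 libraries, the 4 largest falls with DKO K1 at the floor, mitochondrial and sensor genes, and from other lists up to 4 called genes and the most abundant. Members and lists were chosen with earlier results of these data known. Genes named outside this rule (Rmrp, Vaultrc5, Meg3, Gm24514, Gm26461, Gm24357 and Gm22009) were picked after their values were seen. Some genes and sequences that these rules cover are not reported here.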

Additional observations from a re-analysis of the deposited data

Results flagged for a closer look

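These results among the genes named in the text stand out because K1 retrieved a transcript on opposite sides of input in the 2 genotypes, with both sides and the difference between them past the threshold of the edgeR fit. Over all genes 47 that rose and 214 that fell met this description, and only named ones are listed here. Below input in control and above it in DKO were Eid3 (difference 5.09), mt-Atp8 (4.68), mt-Nd2 (3.80), mt-Co3 (3.62), mt-Nd1 (3.62), mt-Nd4 (3.39), mt-Nd3 (3.37), mt-Atp6 (2.49) and the enteroendocrine gene Chga (1.25). mt-Atp8 had a fitted enrichment of -2.59 in control and 2.08 in DKO, and Eid3 of -2.67 and 2.43. Above input in control and below it in DKO were Dhrs9 (-3.42), Cdk7 (-3.33), Cnot6l (-3.06), Zbtb20 (-2.94), Slc44a1 (-2.77), Timm17a (-2.65), Braf (-2.54), Rybp (-2.52), Adap2os (-2.25), Zfp120 (-2.24), Strbp (-2.19), Zfp518a (-2.16), Ifi44 (-2.02) and Drosha (-1.58). Cdk7 had a fitted enrichment of 1.34 in control and -1.99 in DKO. Ros1 and Igip also met this description, but their DKO K1 libraries were at the floor, so their fitted values are not given. No group has enough libraries for a test of single outlying animals.

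Data outside the gene counts also differed. Reads aligned to several places were 36.3% ± 14.7 of the listed reads in DKO K1 (SD, n = 2) and 6.29% ± 0.385 in control K1. Which sequences they come from is not recorded in the counts.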

How the results depend on the processing

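The 1912 called genes (486 higher, 1426 lower) kept their direction in every setting, with 1 exception without the second DKO animal, and thinning left 1790 of them tested. In every called gene both DKO animals lay beyond both control animals, so the kept direction largely follows from how the genes were called. Counts depended on the setting. Without the replicate block 870 were called (218 higher, 652 lower), 866 of them among the 1912. DESeq2 called 1128 (743 lower), thinning to the smallest library 866 (541 lower), the fit of all 12 libraries 920 (194 higher, 726 lower), no TMM 2146 lower, and no filter on low counts 745 higher. Leaving out 1 animal gave 78 to 5748 called, 54 to 1623 higher and 24 to 4125 lower. For J2, 0 were called with the block, 432 without it and 1216 with DESeq2, both added after seeing the data. The share of higher calls was 25.4%, 38.7% with DESeq2 size factors, 37.5% after thinning and 69.2% without the first control animal. The mitochondrial share difference of 13.3 points ranged from 8.30 to 18.2 with an animal left out. Among the named genes fitted under the alternatives, Adar changed sign after thinning, to 0.12, and Oas3, at 0.12, ranged from -0.205 to 0.368 with an animal left out, below 0 without control animal 1 or DKO animal 1. DKO K1 depth, 2220291 counts at the lowest, limits what can be seen of rare transcripts. The causes were not tested.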
